A study of Mus musculus with 2 samples.

Results

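The genes described here are 40 genes of the unfolded protein response and of the early secretory pathway, taken by name from the platform annotation, from a list drawn up with earlier results of these data known. They were chosen from ER stress sensors, the transcription factors those sensors switch on, ER chaperones and folding enzymes, ER-associated degradation, translocation into the ER and transport from the ER to the Golgi. All 40 had a probe set with 1 gene symbol, 102 probe sets in all, out of 18193 genes and 34945 such probe sets on the array. At the brightest probe set of each gene, all 40 had a higher signal in IL-5+ than in IL-5- memory T helper 2 (Th2) cells, mostly by less than 2-fold.

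The study sorted mouse memory Th2 cells into a fraction that was IL-5+ and a fraction that was IL-5-, and hybridised RNA of each to 1 Affymetrix array. Both fractions had the same history: splenic CD4 T cells of BALB/c background from DO11.10 mice, which carry a transgenic T cell receptor for an ovalbumin peptide, were stimulated with that peptide for 6 days in Th2 culture (25 U/ml IL-2 and 100 U/ml IL-4). They were then transferred into athymic BALB/c nu/nu mice, which lack most T cells of their own but keep B cells, NK cells and myeloid cells, and were collected from the spleen after 30 days. How many recipients were used, whether RNA was pooled and whether the cells were stimulated before the sort is not stated in the labels. With 1 array per group, the sort and everything else that differed between the RNA preparations cannot be told apart, no p-value was computed, and every ratio describes these 2 RNA samples.

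Proteins that leave a cell or sit in its membranes enter the ER while they are being made, fold there with the help of chaperones, and travel on in COPII-coated vesicles. When unfolded proteins pile up, the sensors IRE1 (gene Ern1), PERK (Eif2ak3) and ATF6 (Atf6) raise transcription of chaperone, degradation and transport genes, through spliced XBP1, through ATF4 and through a cleaved fragment of ATF6. The response is best known from plasma cells and other cells that secrete much protein. Array signals show the amount of transcript, and neither the splicing of Xbp1 RNA nor the activity of the sensors.

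The values are signal intensities, and the log2 ratio of IL-5+ to IL-5- signal was the comparison. A floor of 36.3, at which 40% of the signals lie, replaced every signal at or under it, and the brightest probe set (highest mean log2 signal) stood for a gene. The array-wide facts that bear on the ratios are few. The sorting marker Il5 gave 37085 on the IL-5+ array, against 67.4 on the IL-5- array. The mean signals without the lowest and highest 2% were 496 for IL-5+ and 497 for IL-5-, and the medians were 57.2 and 60.4. Different probe sets of the same gene disagreed with an SD in log2 ratio of 0.55 where the mean signal was under 112.8, of 0.37 below 500, of 0.21 below 2000 and of 0.13 for brighter probe sets. That SD was the only error that could be measured, and variation between cell preparations is not part of it.

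The T cell identity of both samples was checked against marker genes. Cd3d (9116 in IL-5+ and 13553 in IL-5- cells), Cd3e, Cd3g, Cd4 (454.5 and 471) and Cd28 were above the floor on both arrays, and all 5 had ratios below 0, from -0.71 to -0.051. Markers of plasma cells, the cell type in which the unfolded protein response is best known, were mostly dim, with Ighm, Pou2af1 and Derl3 as exceptions. Over the 7 with a named probe set their signals summed to 667 in IL-5+ and 1579 in IL-5- cells. The floor was exceeded on at least 1 array by 6 of them, with 3 ratios above 0 and 3 below. Ighm, the immunoglobulin heavy chain gene, gave signals of 64.4 in IL-5+ and 813 in IL-5- cells (-3.66), while its 5 measured probe sets ran from -3.66 to 0.16, and Pou2af1, a B cell coactivator, had 159 and 385 (-1.28). Derl3, which is also among the further degradation genes below, had 229 and 199 (0.20). Jchain, which joins immunoglobulin polymers, had 28.8 and 67.7, and Sdc1 57.3 and 51.2. Mzb1, an ER protein of B and plasma cells, had 100.6 and 57.6, while Tnfrsf17 was under the floor on both arrays. Summed signals were 157 in IL-5+ and 263 in IL-5- cells for 7 B cell markers, 313 and 352 for 8 monocyte and macrophage markers, 559 and 752 for 7 dendritic cell markers, 118 and 205 for 8 granulocyte and mast cell markers and 1410 and 2626 for 3 NK cell markers, most of it from Eomes and Nkg7, which T cells also express. Under the floor on both arrays were 3 of the B cell, 4 of the monocyte and macrophage and 6 of the granulocyte and mast cell markers. So were 1 of the dendritic cell and 1 of the NK cell markers. The 6 sums, plasma cells included, were lower in IL-5+ cells, and they include these signals under the floor. Only Cd8a with Cd8b1 (347 and 245) and 2 erythroid markers (39.3 and 22.1) had higher sums. Their part in the ratios below was not tested, and in RNA of whole fractions a different share of cells and a different amount of RNA per cell cannot be told apart.

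All 40 genes were above the floor on both arrays at their brightest probe set. Their median log2 ratio was 0.40 (1.32-fold), with quartiles of 0.26 and 0.61 and a range from 0.14 (Pdia4) to 1.46 (Sec24d). The median of all 13133 measured genes was -0.048, and 44.5% of them had a ratio above 0. Of the 40 genes, 13 (32.5%) were higher by 1.5-fold or more in IL-5+ cells, against 7.88% of all measured genes, and none was lower by as much, against 11.9%. Only Sec24d and Atf6 reached a 2-fold higher signal (5%, against 2.85% of all measured genes), and none had a 2-fold lower one (4.01% of all). The 2-fold share is thus near that of the array as a whole, and the direction and the 1.5-fold share are where the 40 genes differed from it.

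The 40 genes were bright, and ratios of bright genes spread less. The geometric mean signal of the 2 arrays was over 2000 for 32 of them. All 32 had ratios above 0, with a median of 0.40, and 9 (28.1%) were at least 1.5-fold higher. Among all 2411 measured genes over 2000, the median was 0.0061, 51.7% had a ratio above 0 and 4.48% were at least 1.5-fold higher. The median ratio of the bright members therefore lay above that of genes of like brightness as well as above that of the whole array.

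**Figure D1:**
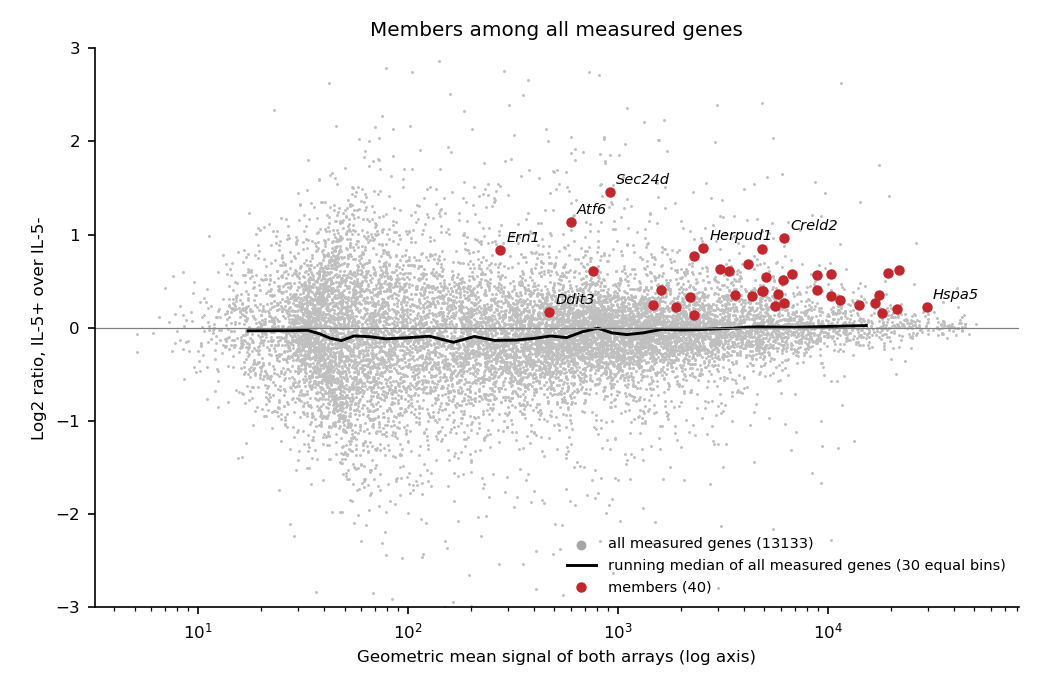
Log2 signal ratio (IL-5+ to IL-5-) against the geometric mean signal (log axis) for all 13133 measured genes (grey), with the running median of 30 equal bins as a black line and the 40 genes in red. All 40 red points lie above 0 while the running median stays close to 0, and 20 of all genes fall outside the vertical limits of -3 and 3.

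Probe sets of the same gene mostly gave the same direction. Of the 102 probe sets, 95 exceeded the floor on at least 1 array, and 91 of these had a ratio above 0. The share over all probe sets was not computed, and by gene it was 44.5% of all measured genes. The 91 include an Hspa5 probe set at 0.00039 and a Hyou1 bound of 0.16 from signals near the floor (40.6 and 32.4). Of the 28 genes with several measured probe sets, 24 had all of them above 0. The exceptions were Ddit3, Edem1, Sel1l and Lman1, each with 1 probe set below 0 (-0.92, -0.15, -0.086 and -0.087). Surf4 and Dnajc3 each had 5 measured probe sets, and these spanned 0.61 to 0.76 for Surf4 and 0.62 to 0.84 for Dnajc3.

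**Figure D2:**
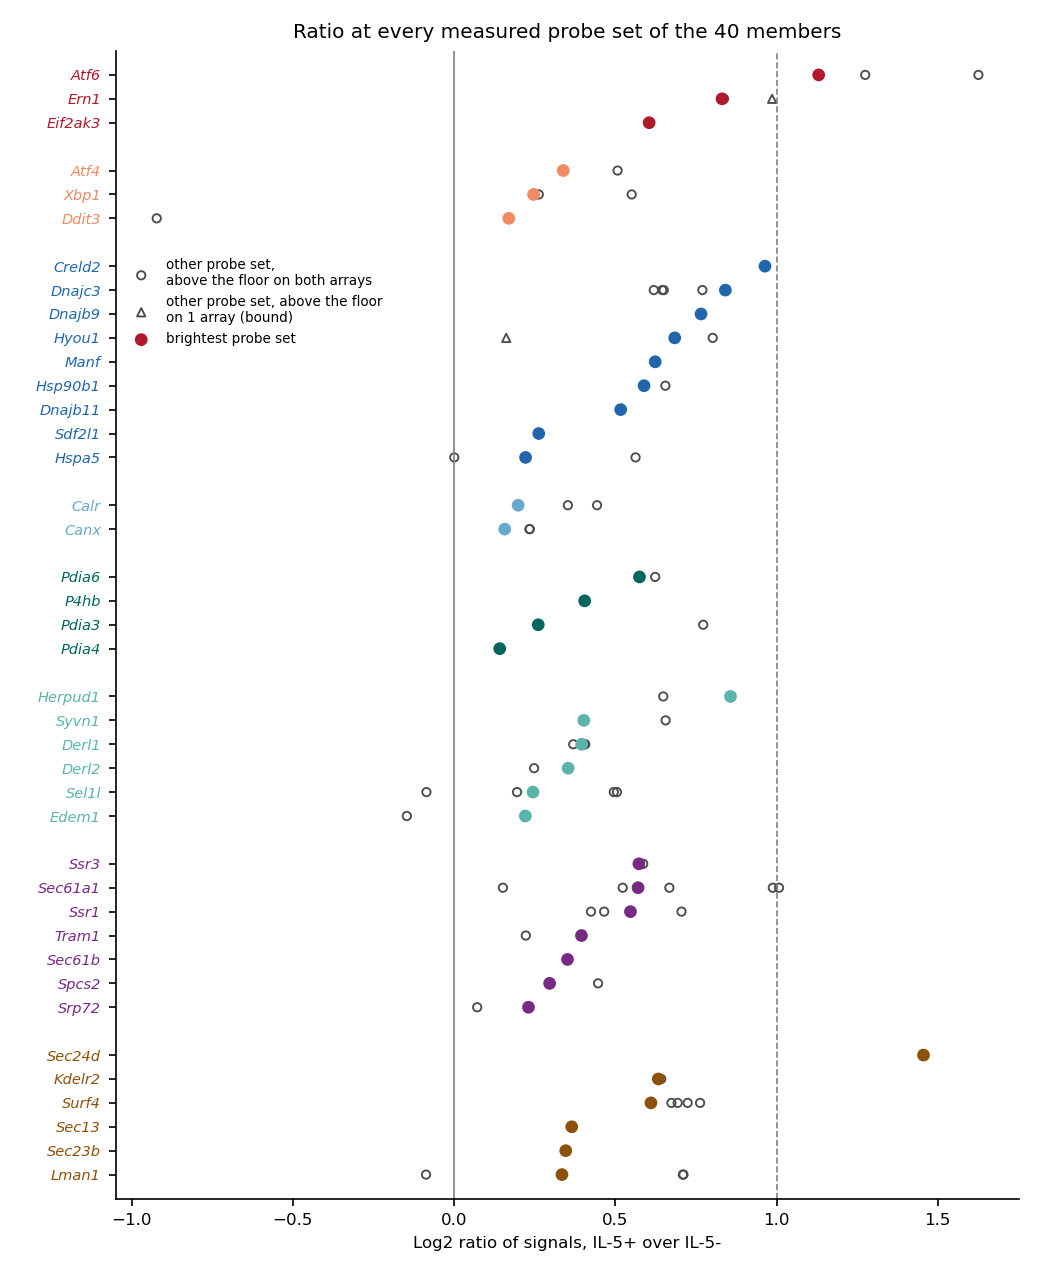
Log2 signal ratio (IL-5+ to IL-5-) at every measured probe set, 1 row per gene and coloured by role. Filled points are the brightest probe set of each gene, open circles its other probe sets above the floor on both arrays, and triangles probe sets above the floor on 1 array, whose ratio is a bound. The solid line marks 0 and the dashed line 2-fold. All filled points lie right of 0, and 4 open circles, of Ddit3, Edem1, Sel1l and Lman1, lie left of it.

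All 3 ER stress sensors were at least 1.5-fold higher in IL-5+ cells, and their median log2 ratio, 0.83, was the highest of the 8 role classes. Atf6, the sensor that moves to the Golgi and is cut into a transcription factor, had signals of 884 in IL-5+ and 404 in IL-5- cells (2.19-fold, log2 ratio 1.13). Its other probe sets gave 284 and 91.9 (1.63) and 570 and 236 (1.27), so that all 3 Atf6 probe sets exceeded 2-fold. Ern1, the kinase and endonuclease that splices Xbp1 RNA, had 367 and 206 (1.78-fold, 0.83). A second Ern1 probe set gave 0.84, and another exceeded the floor only in IL-5+ cells, with a log2 bound of at least 0.99. Eif2ak3, the kinase that slows translation under stress, had 941 and 619 (1.52-fold, 0.60), and its other probe sets were under or at the floor. The sensors were among the dimmer of the 40 genes. The Ern1 ratio of 0.83 stands beside a probe set SD of 0.37 at its signal level, and those of Atf6 and Eif2ak3 beside 0.21.

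Among the transcription factors that the sensors act through, Xbp1 and Atf4 were higher by less than the sensors were. Xbp1 had 15416 in IL-5+ and 12996 in IL-5- cells (1.19-fold, log2 ratio 0.25), and its 4 probe sets ranged from 0.25 to 0.55. Atf4, translated when PERK is active, had 11655 and 9218 (1.26-fold, 0.34), with 0.51 at a second probe set. Ddit3, which encodes the stress-induced factor CHOP, had 500 and 444.5 (1.12-fold, 0.17) at the brighter probe set and 81.9 and 155 (-0.92) at the other. The median of its probe sets was -0.38, and no direction can be given for Ddit3.

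**Figure D3:**
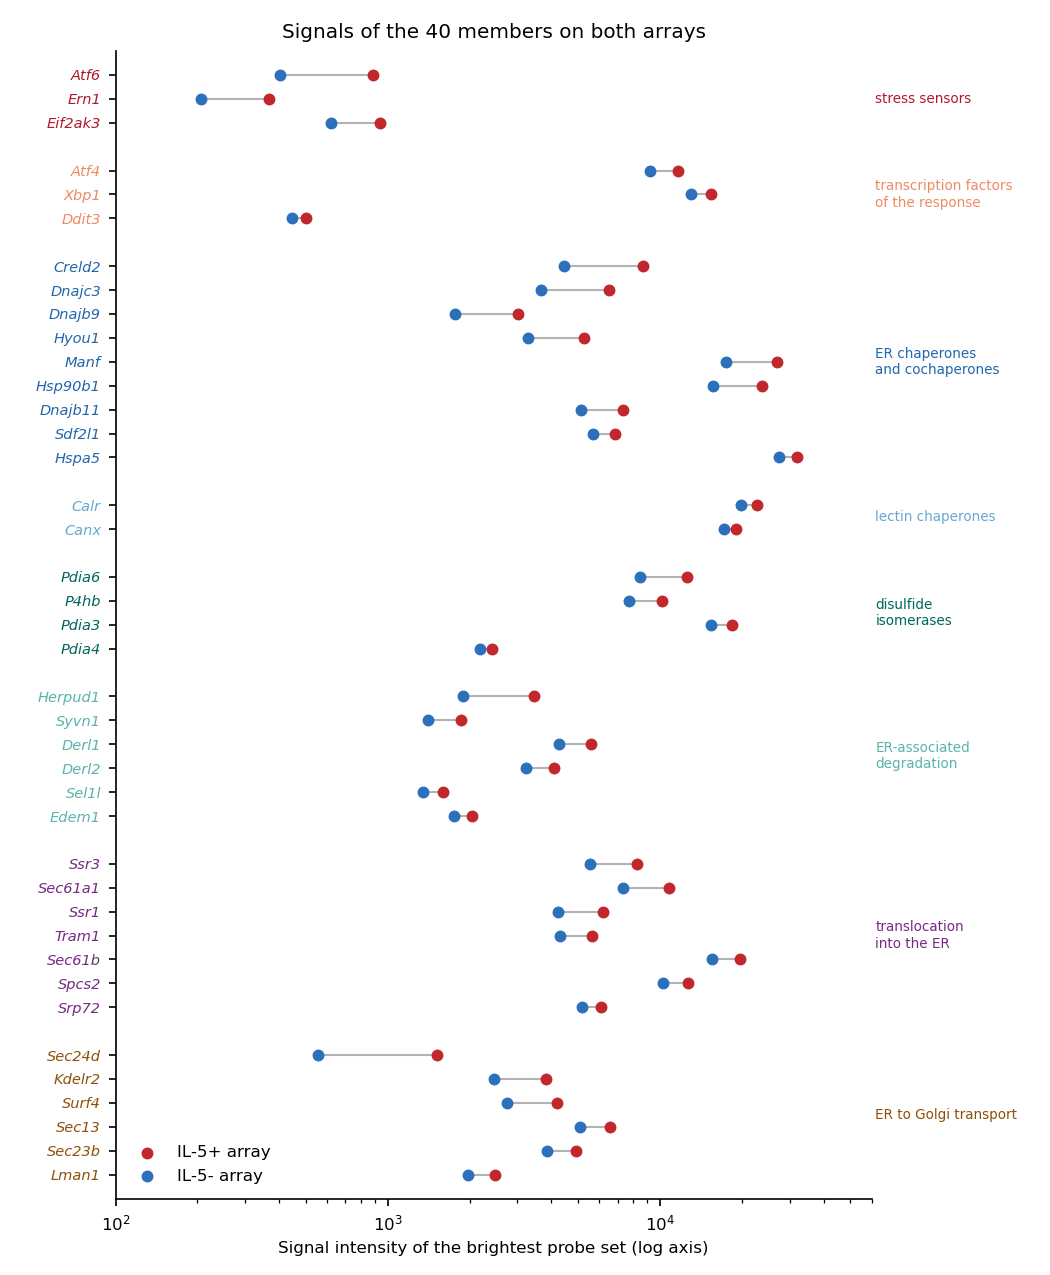
Signal intensity (log axis) of the brightest probe set of each of the 40 genes on the IL-5+ array (red) and the IL-5- array (blue), grouped by role and ordered by ratio within a role. The red point lies right of the blue point in every row, with the widest gap at Sec24d (1522 against 555) and the narrowest at Pdia4 (2416 against 2190). Signals of different genes come from different probes and are not comparable with each other.

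All 9 ER chaperones and cochaperones were higher, and 6 of them at least 1.5-fold, with a median log2 ratio of 0.62. Creld2, a secreted and ER-resident stress protein, led with 8671 in IL-5+ and 4445 in IL-5- cells (1.95-fold, 0.96). Dnajc3, a cochaperone that also inhibits PERK, had 6532 and 3646 (1.79-fold, 0.84). Dnajb9, a cochaperone that represses IRE1 and serves degradation, had 3004 and 1767 (1.70-fold, 0.77). Hyou1, a large chaperone that helps recharge BiP, had 5267 and 3278 (1.61-fold, 0.68), and 0.80 at a dimmer probe set. Manf, an ER stress-induced protein that binds BiP, had 27056 and 17563 (1.54-fold), and Hsp90b1, the ER member of the HSP90 family, had 23680 and 15744 (0.59). Dnajb11, a cochaperone of BiP, stood at 0.52 with 7356 and 5142. Sdf2l1, which works with Dnajb11, was higher by less, with 6824 and 5689 (0.26).

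Hspa5, which encodes BiP and is the usual reporter of the whole response, had one of the smallest ratios at its brightest probe set, with 31952 in IL-5+ and 27406 in IL-5- cells (1.17-fold, log2 ratio 0.22). Its second probe set gave 23273 and 15758 (0.56), and another, far dimmer one gave 1468 on both arrays (0.00039). The probe sets of Hspa5 do not fix the size of its difference.

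The 2 lectin chaperones hold newly glycosylated proteins until they are folded. At the brightest probe sets, their median of 0.18 was the lowest of the role classes. That rank depended on the choice of probe set. With each gene's probe sets summarised by their median, the lectin chaperones stood at 0.29 and the transcription factors at 0.26. Calr had 22834 in IL-5+ and 19898 in IL-5- cells (1.15-fold) and Canx 19136 and 17164 (1.11-fold). The brightest Calr probe set gave the smallest ratio of its 3, at 0.20 against 0.35 and 0.44, and that of Canx gave 0.16 against 0.23 at both others. The disulfide isomerases, which form and rearrange disulfide bonds, had a median of 0.33. Pdia6 had 12637 and 8484 (1.49-fold), P4hb 10227 and 7725 (1.32-fold), Pdia3 18442 and 15392 (1.20-fold) and Pdia4 2416 and 2190 (1.10-fold). The Pdia4 ratio of 0.14 is about the size of the probe set SD of 0.13 at its signal level.

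The 6 genes of ER-associated degradation, which returns misfolded proteins to the cytosol, had a median of 0.37. Herpud1, a membrane scaffold of this pathway that ER stress induces, stood apart from the other 5 with 3441 in IL-5+ and 1900 in IL-5- cells (1.81-fold, 0.86), and its second probe set gave 0.65. Syvn1, the ubiquitin ligase HRD1, had 1858 and 1406 (0.40), and 0.66 at its other probe set. Derl1 (5599 and 4257, 0.40) and Derl2 (4104 and 3212, 0.35) encode membrane proteins of the exit channel, and all 4 Derl1 probe sets lay between 0.37 and 0.41. Sel1l, the partner of HRD1, had 1598 and 1349 (0.24), with 5 probe sets from -0.086 to 0.50. Edem1, which recognises glycoproteins for disposal, had 2047 and 1756 (0.22) at one probe set and 975 and 1080 (-0.15) at the other, and no direction can be given for it.

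The ratios of genes of entry into the ER lay within a narrow band, from 0.23 to 0.57 with a median of 0.39 over 7 genes, and none reached 1.5-fold at its brightest probe set. The translocon subunit gene Sec61a1 had 10851 in IL-5+ and 7308 in IL-5- cells (1.48-fold), and its 6 probe sets ranged from 0.15 to 1.01. Ssr3 (8235 and 5536, 1.49-fold) and Ssr1 (6177 and 4229, 1.46-fold) encode translocon-associated proteins, and every measured probe set of these genes was above 0.42. Tram1, another translocon-associated gene, had 5642 and 4291 (0.39), and Sec61b 19790 and 15510 (0.35). Spcs2, of the signal peptidase, had 12672 and 10320 (0.30), and Srp72, of the signal recognition particle, 6065 and 5169 (0.23).

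Transport from the ER to the Golgi held the gene with the highest ratio. Sec24d, a cargo-binding subunit of the COPII coat, had 1522 in IL-5+ and 555 in IL-5- cells (2.74-fold, log2 ratio 1.46) at its only probe set. The other 5 genes ranged from 0.33 to 0.63. Kdelr2, the receptor that returns escaped chaperones to the ER, had 3810 and 2457 (1.55-fold), and Surf4, a cargo receptor, 4194 and 2747 (1.53-fold). The coat subunit genes Sec13 (6553 and 5090, 0.36) and Sec23b (4912 and 3865, 0.35) were closer to the median of the 40 genes. Lman1, a cargo receptor for glycoproteins, had 2482 and 1969 (0.33) at its brightest probe set, 0.71 at 2 others and -0.087 at a dim one (116 and 123).

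The promoters of the 40 genes were searched for the sequence elements through which the response is known to act. Promoter sequences of 300 bases, from 250 before to 50 after a start site, were taken from RefSeq (GRCm38.p6), which held 32 of the 40 genes. The ER stress response element (ERSE), bound by ATF6 and NF-Y, is CCAAT, then 9 bases of any kind, then CCACG. Read on both strands, it was found in 8 of the 32 genes (25%) and in 39 of all 32851 promoters (0.119%). The related element ERSE-II is ATTGG, then 1 base, then CCACG. It was found in 2 of the 32 genes (6.25%) and in 12 of all promoters (0.0365%). The core of the unfolded protein response element, TGACGTGG, was found in 1 of the 32 genes, Sec24d (3.13%), and in 222 of all promoters (0.676%). A core of the element bound by ATF4, TGATGNAAT, was in none of the 32 and in 317 of all promoters (0.965%). Counted by gene, over the 10592 measured genes with a promoter, the shares were 0.142% for ERSE, 0.0755% for ERSE-II, 1.05% for TGACGTGG and 0.623% for TGATGNAAT. The 40 genes were chosen as genes of this response and the elements are known from it, so their shares are not independent of that choice. In the 32 genes the last 2 elements could not overlap with ERSE, because TGATGNAAT was absent and Sec24d held no ERSE.

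The elements are shown because 11 of the genes hold one of them. Each line gives 20 bases on either side of the element, turned so that the element reads forward, with the fixed letters of the element in capitals. The ERSE copies lay between 212 and 25 bases before the start site.
Hspa5, chr2:34772005-34772063, plus strand: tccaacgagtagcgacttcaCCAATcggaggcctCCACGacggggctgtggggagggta
Creld2, chr15:88819500-88819558, minus strand: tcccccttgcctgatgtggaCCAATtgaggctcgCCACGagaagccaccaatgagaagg
Dnajc3, chr14:118937807-118937865, plus strand: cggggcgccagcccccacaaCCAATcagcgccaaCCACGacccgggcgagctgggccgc
Hsp90b1, chr10:86705618-86705676, minus strand: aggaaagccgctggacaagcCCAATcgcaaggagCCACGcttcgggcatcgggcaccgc
Hsp90b1, chr10:86705513-86705571, plus strand: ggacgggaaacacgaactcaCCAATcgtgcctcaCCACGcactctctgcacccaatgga
Pdia6, chr12:17266471-17266529, plus strand: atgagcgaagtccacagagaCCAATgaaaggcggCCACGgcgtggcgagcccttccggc
Syvn1, chr19:6046512-6046570, plus strand: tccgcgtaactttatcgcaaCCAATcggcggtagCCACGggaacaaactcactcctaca
Calr, chr8:84847055-84847113, plus strand: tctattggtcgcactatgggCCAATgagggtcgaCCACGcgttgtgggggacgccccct
Canx, chr11:50325780-50325838, minus strand: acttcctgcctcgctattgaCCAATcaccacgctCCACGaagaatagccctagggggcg
Herpud1 (ERSE-II), chr8:94386357-94386407, plus strand: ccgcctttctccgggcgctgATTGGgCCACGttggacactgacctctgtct
Dnajb11 (ERSE-II), chr16:22857832-22857882, plus strand: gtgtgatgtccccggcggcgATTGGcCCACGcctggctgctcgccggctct
Sec24d (TGACGTGG), chr3:123267450-123267497, plus strand: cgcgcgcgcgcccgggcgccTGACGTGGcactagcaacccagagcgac

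The ERSE copies of Creld2 and Calr and 1 of the 2 copies of Hsp90b1 run against the direction of the gene. The ERSE-II of Dnajb11 begins 7 bases after the start site. The Sec24d start site in the table lies 2695 bases inside the annotated gene. The 10 genes with ERSE or ERSE-II had a median log2 ratio of 0.55, from 0.16 (Canx) to 0.96 (Creld2). The 22 with neither, Sec24d with its TGACGTGG among them, had a median of 0.35, from 0.14 to 1.46. Genes without a promoter sequence, such as Atf6, are in neither group. The genes with ERSE or ERSE-II thus had the higher median and the ranges overlap, and a link between element and ratio was not tested. Of 13 other measured genes with ERSE or ERSE-II, 10 had a ratio above 0, with a median of 0.20 and a range from -0.52 (Lgalsl) to 0.68 (Ero1b). Over all 10592 measured genes with a promoter the median was -0.050 and 44.2% were above 0. Among the 110 other measured genes with TGACGTGG, 63 (57.3%) were above 0, with a median of 0.025. A match is a description of these letters and not evidence of a bound site.

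Other genes of the same compartments had the same direction at a smaller size. In 5 lists of further folding enzymes, N-glycosylation, degradation, translocation and coat genes, 93 genes were measured, and 84 (90.3%) had ratios above 0, against 44.5% of all measured genes. Their median was 0.27, 12 (12.9%) were at least 1.5-fold higher (7.88% of all), and none was 1.5-fold lower (11.9% of all). Of 17 other folding enzymes 16 were above 0 (median 0.34), led by Calu (4147 in IL-5+ and 2582 in IL-5- cells, 0.68), Ero1b (712 and 444, 0.68) and Ero1a (4365 and 2756, 0.66), the last 2 of which are oxidases that reload the disulfide isomerases. Of 18 N-glycosylation genes 17 were above 0 (median 0.32), led by Dpagt1 (1887 and 1114, 0.76), which starts the sugar chain, Alg2 (615 and 363, 0.76) and Gfpt1 (4309 and 3009, 0.52).

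Of 17 further degradation genes 14 were above 0 (median 0.21), and Selenos (11535 in IL-5+ and 7251 in IL-5- cells, 0.67) was the only one at least 1.5-fold higher, followed by Erlec1 (0.48, with a probe set at -0.61) and Ubxn4 (0.42). Of 15 further translocon and signal recognition genes 13 were above 0 (median 0.29), with Srprb (1380 and 722, 0.93), a subunit of the signal recognition particle receptor, and Sec11c (6311 and 3907, 0.69), of the signal peptidase, highest, while Tram2 was dim and lower (88.6 and 130, -0.55). Of 26 coat and vesicle genes 24 were above 0 (median 0.23). Sec23a, the inner coat subunit that pairs with SEC24 proteins, had 1945 and 929 (2.09-fold, 1.07) and was the only gene of the 5 lists at least 2-fold higher. Tmed9 (0.59) and Sec22b (0.57) followed.

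The coat genes differed among paralogs. Sec24d and Sec23a were over 2-fold higher, whereas Sec23b stood at 0.35 and Sec24a, Sec24b and Sec24c at 0.18, 0.23 and 0.12. A second Sec24a probe set gave 0.81 and a second Sec24b probe set -0.38. In the list of other transducers of the response the median was 0.031, with 5 of 9 above 0, against 44.5% of all measured genes. That median is the value of Creb3l1, a bound from a signal just over the floor (37.1 in IL-5+ and 10.8 in IL-5- cells). Without a floor the median was 0.16 over 10 genes, and with the floor at the 60th percentile 0.16 over 6. Creb3l2, an ER-membrane transcription factor related to ATF6 that in mouse cartilage activates Sec23a, had 854 in IL-5+ and 304 in IL-5- cells (2.81-fold, 1.49), and 1.20 at its second probe set. Creb3l3 exceeded the floor only in IL-5- cells (11.1 and 103, lower in IL-5+ cells by at least 2.83-fold), and a signal of 103 is still dim. Atf6b, the paralog of Atf6, had 1495 and 1233 (0.28), and Nfe2l2, which PERK can activate, had 789 and 941 (-0.25).

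Targets of ATF4 and PERK were mixed. Of 18 measured, 12 had ratios above 0, against 44.5% of all measured genes, and the median was 0.31. At least 1.5-fold higher were 3 (7.88% of all), and none was 1.5-fold lower (11.9% of all). Ppp1r15a, which reverses the translation block imposed by PERK, had 1891 in IL-5+ and 1090 in IL-5- cells (1.74-fold, 0.79). Sesn2 (160 and 96.8, 0.72) was dim and its other probe set gave -0.38, and Trib3 (149 and 95.9, 0.63) was dim as well. The metabolic enzyme genes Mthfd2, Psat1 and Asns stood at 0.53, 0.44 and 0.32. Phgdh and Shmt2, enzyme genes of the same list, stood at 0.077 and -0.0044, with probe sets down to -0.50 and -0.56. The stress factor genes Atf3 (1197 and 1643) and Cebpb (1576 and 1950) stood at -0.46 and -0.31.

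Chaperones of the cytosol and mitochondria, which do not belong to the ER response, had a median of -0.0057. Of 13 measured, 6 were above 0, a share near the 44.5% of all measured genes. None was at least 1.5-fold higher (7.88% of all), and 13 genes are too few to set that apart from the share of all. Hspa8 had 40052 in IL-5+ and 42158 in IL-5- cells (-0.074), with 4 probe sets from -0.42 to 0.53, and Hspd1 24638 and 24513 (0.0073). The heat-inducible Hspa1a exceeded the floor only in IL-5- cells (25.4 and 157, lower in IL-5+ cells by at least 4.33-fold), and Hspa1b (190 and 274) and Bag3 (323 and 392) stood at -0.53 and -0.28.

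Transcripts of secreted cytokines, cargo of this pathway, were measured on the same arrays. Of 18, including Il5, 15 had ratios above 0. Without Il5, 8 of 17 were at least 2-fold higher, against 2.85% of all measured genes, and the median was 0.91. Il9 (9277 in IL-5+ and 547 in IL-5- cells, 4.08) and Il31 (922 and 95.4, 3.27) led. Il21 (369 and 896, -1.28) was the only one at least 2-fold lower, against 4.01% of all, and its second probe set gave 0.44. Tnf (-0.53) and Ifng (-0.34) were the others below 0. The cells were sorted on one of these cytokines, so this list is not independent of the sort. Whether the cytokine and the ER genes are linked was not tested, and 2 arrays allow no correlation.

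**Figure D4:**
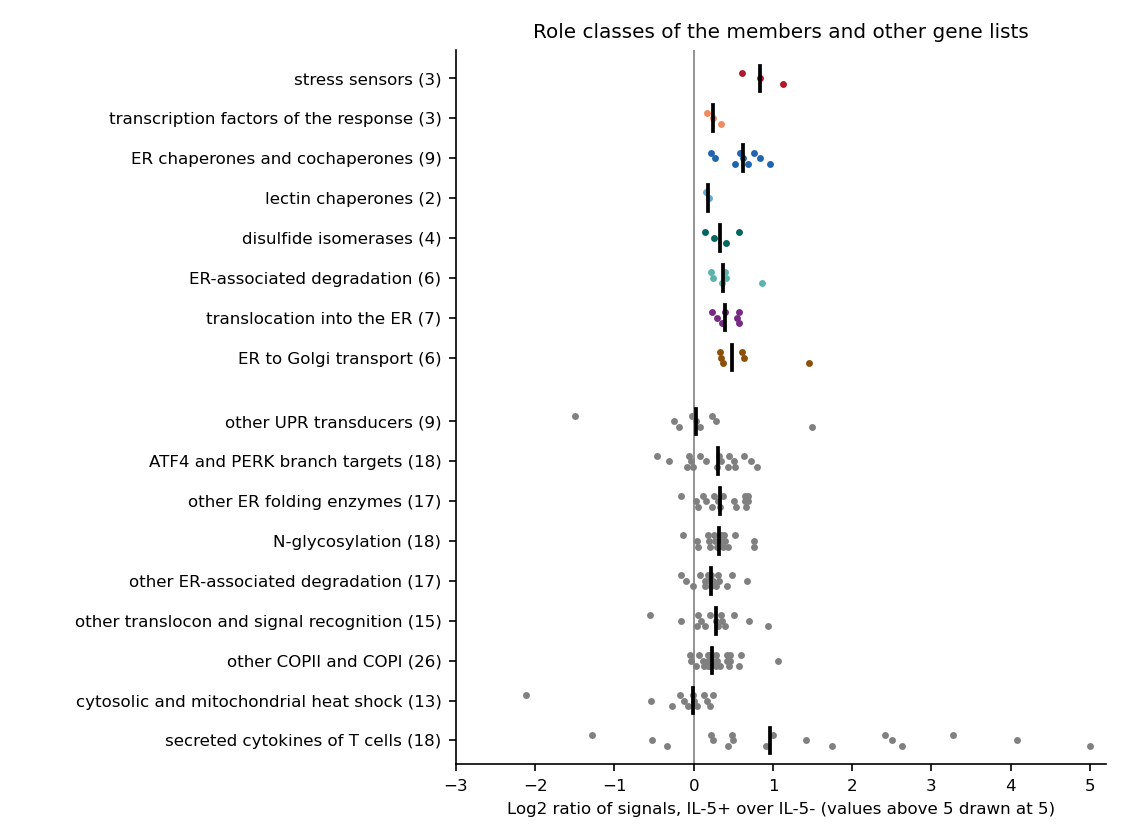
Log2 signal ratio (IL-5+ to IL-5-) of every measured gene in the 8 role classes of the 40 genes (coloured) and in 9 other lists (grey), with the number of measured genes in brackets and the median as a black bar. The medians of the role classes lie between 0.18 and 0.83 and that of the cytosolic and mitochondrial chaperones at -0.0057. Il5 (9.10) is drawn at the right edge.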

How the data were processed

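Both arrays were read from the table of linear signal intensity values that the authors deposited, with 45037 probe sets and no detection calls. GCOS, Affymetrix software for scanned arrays, made them per the submitters' processing notes, which name no version or scaling target. The near-equal trimmed means are what scaling to a common target would give, so a ratio is relative to all other signals on the array. Probe sets with 1 gene symbol (34945) were used. Those with several (932) or none listed (9160) were not. Each group had 1 array, so no test was made. Genes were counted at 2-fold, with 1.5-fold as an alternative; precision is limited by the number of arrays. Genes given in full were up to 4 per role with the largest ratios, those with probe sets of opposite sign, and Hspa5, Xbp1, Atf4 and Ddit3, with up to 3 per other list. In the text the other members of the 40, and some further genes of the lists, are given too. The members and lists were chosen with earlier results of these data known. The comparison with genes over a mean signal of 2000 and the ratios by promoter element were added after the values were seen. Counting was tested on simulated arrays. Promoters were matched to the genes by symbol. A planned count of ER retrieval signals in the proteins was not run, because no protein sequences were at hand. Calculations ran in Python 3.11.15 with pandas 2.3.3, numpy 2.4.6, statsmodels 0.14.6 (loess) and matplotlib 3.10.9.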

Additional observations from a re-analysis of the deposited data

How the results depend on the processing

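The direction of the 40 genes was the same under quantile and loess scaling, with all 40 ratios above 0. Array median scaling kept them above 0 as well, but it raised every ratio and so could not reverse one. Floors at the 20th and 60th percentile, no floor and an added constant also left all 40 above 0. Those settings could not change a sign either. The lowest signal at these probe sets was 206, above the highest floor of 112.8, and a constant keeps the sign of a difference. With a gene's probe sets summarised by their median 39 did, with Ddit3 at -0.38, and without probe sets of the suffixes _s_at, _x_at and _a_at all 34 genes that kept a probe set did. The median of the 40 genes ranged from 0.36 to 0.51, and that of all measured genes from -0.051 to 0.026. The count of genes at least 2-fold higher, 2 of 40 as reported, was 13 at a threshold of 1.5-fold and 0 at 3-fold. Counted by probe set instead, 5 of the 95 measured probe sets reached 2-fold, among them all 3 of Atf6. Shares over the whole array were not computed at 3-fold or by probe set. At 1.5-fold, Hsp90b1 lies just above the threshold and Pdia6, Ssr3 and Sec61a1 just below it, and the count was 18 with array median scaling (9.67% of all measured genes), 11 with quantile (9.06%) and 11 with loess scaling (8.96%), against 13 (7.88%) as reported. Without the suffixed probe sets, 4 list medians moved by more than the probe set SD, to 0.77 for ER chaperones, 0.63 for ER to Golgi transport, 0.13 for the other translocon genes and 1.16 for cytokines. The cause was not tested, although fewer genes entered each list. No paired analysis was possible because each group had 1 array. Differences under 2-fold in single dim genes, such as Ern1, are limited by the probe set SD of 0.37.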
